A study of Mus musculus with 26 samples.

Results

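T (Brachyury), Nkx1-2, Cdx1, Cdx2, Cdx4, Sp5, Sp8 and Evx1 are transcription factor genes of the tailbud, the growth zone at the posterior end of the vertebrate embryo. They were taken by gene name from the deposited tables and make up 8 of the 55141 genes listed. All 8 had reads in each of the 26 libraries and passed the filter on low counts. The tailbud holds neuromesodermal progenitors, cells that can give rise to both spinal cord and paraxial mesoderm. Wnt and FGF signals keep these cells in place, and T, the Cdx factors, Sp5 and Sp8 are known to act downstream of or together with Wnt signals there. As axis extension slows, progenitors are used up and the expression of such genes declines in the embryo.

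The samples were mouse gastruloids, which are grown from aggregated embryonic stem cells and come to hold tissues of the trunk and tail, and their polyadenylated RNA was sequenced. HoxB Del/Del(i9-13) is shared by the 8 lines, Del included, which has no other edit. The other 7 lines have Ins(CBS5-10) as well, and Ins has only these edits. To it InsDel5to10 adds Del(CBS5-10), InsDel7to10 adds Del(CBS7-10) and InsDel8to10 adds Del(CBS8-10). The cassette is inverted, written Inv(CBS5-10), in the clones InvClone1 and InvClone2, and in InvDel7to10, which also has Del(CBS7-10). The sources used here do not explain i9-13 or CBS. At 96h after aggregation there was 1 library, of InvClone1. At 120h there were 4 libraries of InvClone1, 2 each of InsDel7to10, InsDel5to10 and InvClone2, 1 each of InvDel7to10 and InsDel8to10, and 3 each of Ins and Del. The 144h libraries were 2 of InvClone1 and 1 each of InvDel7to10, InsDel8to10, Ins and Del, and the 168h library was from InvClone1.

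Libraries held 18746411 to 37716547 counts in total. Each also has a name in the labels, ISML_first, ISML_second, ISML_third or TruSeq_second, which was a term of the main fit of all libraries. Whether replicates are separate cultures is not stated, so the p-values here cover only the spread between samples, and that may be technical. The mitochondrial share of counts was 0.0864% in replicate 2 of InvClone1 at 144h and 0.587% to 1.51% elsewhere. Reads were found for 30216 genes in the TruSeq replicate 2 of InvClone1 at 120h and for 20666 to 23915 genes in the other libraries. RNA was taken from whole gastruloids, so fewer cells of a type and less RNA per cell cannot be told apart.

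The promoters of T, Sp5 and Sp8 are shown because these genes changed with stage and their windows hold letters of the motif of TCF and LEF factors, the DNA-binding partners of the Wnt effector beta-catenin. Windows of 250 bases before each RefSeq transcription start (GRCm38.p6) were searched on both strands for CTTTG followed by 2 bases that are each A or T. Capitals mark the matches, and a match on the other strand reads as its reverse complement. All windows printed lie on the plus strand, at chr17:8434173-8434422 for T, chr2:70474673-70474922 for Sp5 and chr12:118846983-118847232 for Sp8, the last at the second of its 3 listed starts.
T: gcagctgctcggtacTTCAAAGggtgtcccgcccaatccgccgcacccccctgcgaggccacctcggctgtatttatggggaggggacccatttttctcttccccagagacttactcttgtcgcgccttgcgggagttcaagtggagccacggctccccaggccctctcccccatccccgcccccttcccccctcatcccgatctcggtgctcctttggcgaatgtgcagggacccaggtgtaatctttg
Sp5: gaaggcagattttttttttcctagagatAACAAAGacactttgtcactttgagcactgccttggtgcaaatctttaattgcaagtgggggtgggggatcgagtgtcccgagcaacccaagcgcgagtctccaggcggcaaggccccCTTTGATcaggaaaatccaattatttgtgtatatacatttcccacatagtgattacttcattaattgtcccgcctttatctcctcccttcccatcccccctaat
Sp8: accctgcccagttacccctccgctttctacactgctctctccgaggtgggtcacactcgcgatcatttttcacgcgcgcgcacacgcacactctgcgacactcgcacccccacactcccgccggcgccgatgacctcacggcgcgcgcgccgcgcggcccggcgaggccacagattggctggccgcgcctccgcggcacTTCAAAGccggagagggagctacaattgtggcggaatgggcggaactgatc
The match before T begins 235 bases upstream of the start. Sp5 has matches 222 and 104 bases upstream, and Sp8 has 1 match 51 bases upstream. Of the 8 genes 7 were in the RefSeq table, and Cdx1 was not. These 3 of 7 genes held a match, and 16.8% of the 27025 genes in the table held 1 in the window of any of their starts. The windows of Nkx1-2, Cdx2, Cdx4 and Evx1 held none of these letters.

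Per transcript length, Cdx2, a caudal-type homeobox factor that drives posterior axis growth, stood highest at 120h. Its median over the 18 libraries of that stage was 45.5 FPKM, with values between 31.9 and 57.7 FPKM. Nkx1-2, a homeobox gene marking the epiblast next to the primitive streak that holds these progenitors, followed with a median of 32.0 FPKM (18.8 to 55.5). T, the T-box factor of the streak, tailbud mesoderm and notochord, had 22.0 FPKM (12.8 to 34.8). Cdx4, the X-linked caudal factor, was close to it at 20.5 FPKM but spread much more widely, between 5.18 and 43.7 FPKM. Cdx1, the caudal factor that responds directly to Wnt and retinoic acid, had 11.5 FPKM (6.16 to 17.6) and the zinc-finger factor Sp8 had 9.28 FPKM (5.73 to 14.1). Its relative Sp5, a direct Wnt target, and the homeobox gene Evx1 had the lowest medians, 5.19 FPKM (1.86 to 11.3) and 4.68 FPKM (2.09 to 6.51). The ranges of all neighbours in this order overlapped. The order differed at the ends of the culture, for which there was 1 library each. Cdx1 led at 96h with 92.7 FPKM, and Sp8 led at 168h with 19.8 FPKM, the highest of the 8 genes.

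**Figure D1:**
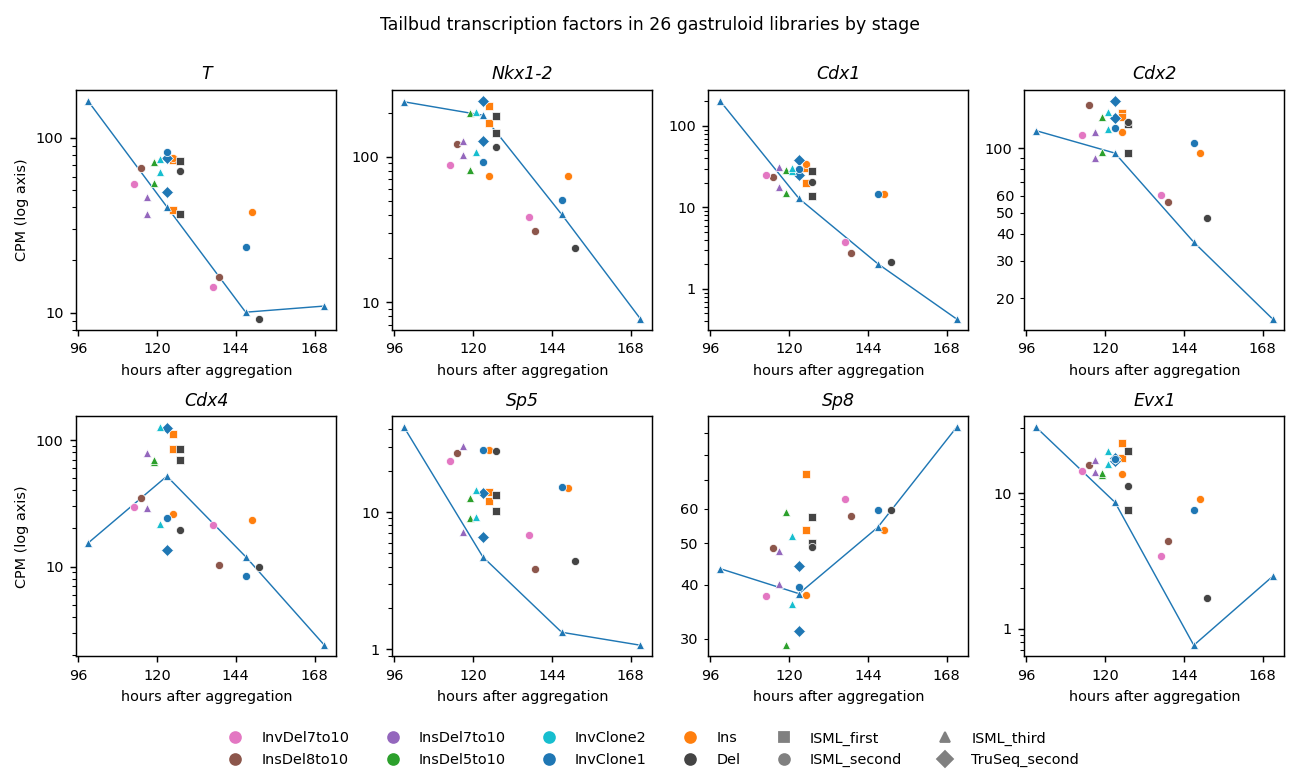
CPM, the count scaled to the size of the library (log axis), of the 8 genes against hours after aggregation in all 26 libraries; points are spread sideways by line (colour), shapes give the library name, and the blue line joins the 4 ISML_third libraries of InvClone1. For 7 genes the 144h values lie low, while Sp8 lies between 53.5 and 63.2 CPM at 144h and reaches 92.9 CPM at 168h.

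At 144h, against 120h, expression of 7 of the 8 genes fell and that of Sp8 rose. The comparison used 5 lines with 1 ISML_second library at each stage, with the line as a block. All 8 genes passed (edgeR quasi-likelihood test, adjusted p under 0.05 over 15011 genes), a test that called 15.2% of all genes, 5.94% lower and 9.25% higher. The median log2 fold change was -1.43 over the 8 genes, against -0.00799 over all genes. Each gene moved in the same direction in 5 of 5 lines, as the plot of change by line shows. These are the libraries of the test itself, and the share of all genes that did so was not counted.

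T fell in every line. At 144h it had 14.0 CPM in InvDel7to10, 23.9 in InvClone1, 16.1 in InsDel8to10, 37.6 in Ins and 9.22 in Del, against 54.1, 82.7, 67.6, 76.8 and 64.4 CPM in the same lines at 120h. No 144h value reached the lowest 120h value of these libraries. Over all libraries of 120h T was as low as 36.5 CPM, below the Ins library of 144h. The log2 fold change was -1.89 ± 0.22 (SE, edgeR, adjusted p = 0.00106). Evx1, which in the mouse is expressed in the streak and tailbud and later in interneurons, had 1.7 to 9.09 CPM at 144h (Del lowest, Ins highest), against 11.2 to 17.7 CPM at 120h. Its fold change was -1.62 ± 0.28 (adjusted p = 0.00601, edgeR). Part of the Evx1 span (chromosome 6, 52313498 to 52318378, mm10) is shared with Evx1os (52308389 to 52314832), a gene with a median of 14.0 CPM, and without a stated strand setting their reads cannot be told apart.

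The caudal genes fell to different extents. Cdx1 had 3.73 CPM in InvDel7to10, 14.7 in InvClone1, 2.78 in InsDel8to10, 14.5 in Ins and 2.13 in Del at 144h, against 25, 29.8, 23.8, 33.8 and 20.7 CPM at 120h. These 144h libraries formed a low set of 3 lines and a higher pair, all of them below the ISML_second libraries of 120h. The fold change was -2.15 ± 0.37 (edgeR, adjusted p = 0.0061). The other InvClone1 library of 144h, from ISML_third, had 2.04 CPM, so the place of InvClone1 in the pair rested on a single library. Over all libraries of 120h Cdx1 was as low as 12.9 CPM. Cdx2 averaged 72.9 ± 25.7 CPM at 144h and 130.2 ± 17 CPM at 120h (SD, n = 5 each), a fold change of -0.87 ± 0.21 (edgeR, adjusted p = 0.0264). Cdx4 averaged 14.7 ± 7.12 CPM at 144h and 26.8 ± 5.83 CPM at 120h. Its fold change was -0.94 ± 0.23 (edgeR, adjusted p = 0.0314). In these ISML_second libraries it was the only one of the 8 genes whose stages overlapped in range. Over all libraries of both stages the ranges of every gene but Nkx1-2 overlapped. The share of all genes with separate stages was not counted.

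Nkx1-2 averaged 43.4 ± 19.3 CPM at 144h and 98.5 ± 20.1 CPM at 120h (SD, n = 5 each), a fold change of -1.24 ± 0.31 (edgeR, adjusted p = 0.0298). Of the 8 genes it had the widest range of log2 change between lines, though not the largest SE. Del kept 20.5% of its 120h level at 144h, whereas Ins kept 99.1%, with 73.2 CPM at 144h and 73.9 CPM at 120h. Sp5 averaged 9.11 ± 5.70 CPM at 144h and 27.0 ± 2.04 CPM at 120h, a fold change of -1.73 ± 0.31 (edgeR, adjusted p = 0.00802). Its 120h libraries were close together, between 23.5 and 28.4 CPM, and its 144h libraries spread between 3.83 and 15.4 CPM.

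Sp8, which is expressed in the tailbud and also in the neural tube, had 63.2 CPM in InvDel7to10, 59.7 in InvClone1, 57.7 in InsDel8to10, 53.5 in Ins and 59.6 in Del at 144h. At 120h the same lines had 37.7, 39.5, 48.8, 37.8 and 49.0 CPM. All 144h values lay above all 120h values of these libraries, and the fold change was 0.49 ± 0.09 (edgeR, adjusted p = 0.00881). The other 120h libraries had 28.9 to 72.3 CPM, so over all libraries the stages overlapped. Sp5 and Sp8, members of the same zinc-finger family, thus passed in opposite directions.

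**Figure D2:**
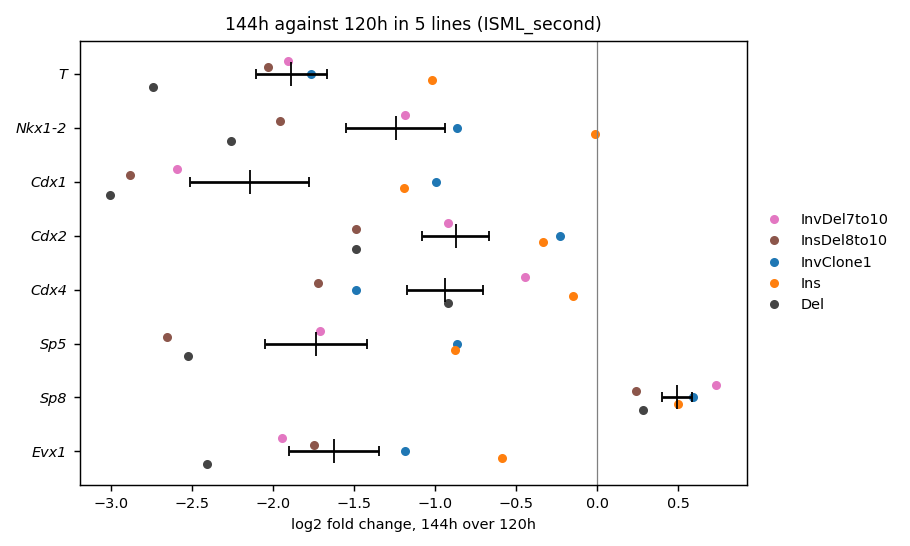
Log2 change in CPM at 144h against 120h for each gene in each of 5 lines (points) with the edgeR estimate and its standard error. All points of 7 genes lie below 0 and all points of Sp8 lie above it, and for Nkx1-2 they run from -2.26 in Del to -0.01 in Ins. The Ins library used at 120h had the lowest Nkx1-2 level of all libraries of that stage.

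T and Evx1 passed under all 11 alternatives of this comparison, and the signs of all 8 genes held in each. The number of genes past the threshold depended on single lines. Without InvClone1 4 passed (T, Cdx1, Sp8 and Evx1), although 32.1% of all genes were then called. Without Del, InsDel8to10 or InvDel7to10 5 passed (these 4 and Sp5), where 9.09%, 9.04% and 9.33% of all genes were called. Without Ins all 8 passed, where 10.9% were called. The InvClone1 library of 144h used here was replicate 2, which had the low mitochondrial share of 0.0864%. Its part in these calls was not tested.

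Other genes of the tailbud and its derivatives are given from lists of textbook markers, with counts past the same test. Of 12 signalling genes of the tailbud 8 were lower and 1 was higher at 144h, with a median log2 fold change of -1.11. They included the ligands Fgf8 (-1.64), Fgf3 (-1.66) and Fgf4 (-2.29) and Cyp26a1 (-1.55), which degrades retinoic acid. Of 9 presomitic mesoderm genes 8 were lower and none higher, among them the Notch ligands Dll1 (-1.03) and Dll3 (-1.92). Of 7 neural tube genes 6 were higher and 1 lower, including Sox2 (1.58), Sox1 (1.92) and Pax6 (2.98). Of 7 neuronal genes tested 5 were higher and 1 lower, with Elavl3 at 4.25. The 8 neuronal markers summed to 66.7 to 157 CPM at 144h, against 27.6 to 36.8 CPM at 120h. The 7 neural tube markers summed to 390.0 to 696 CPM, against 190 to 236 CPM. Their part in the changes of the 8 genes was not tested.

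Since T also marks the notochord, the notochord list was set beside it. Of 4 notochord genes tested 3 were higher at 144h, Shh (0.68), Foxj1 (0.91) and Foxa2 (0.53), and none was lower. The 5 markers on the list summed to 35.5 to 44.5 CPM at 144h, against 26.7 to 35.7 CPM at 120h. Their part in the change of T was not tested. Cdx2 and Cdx1 are also known in gut endoderm. Of 10 endoderm genes, which include Foxa2, 4 were higher and 2 lower, and their sum was 338 to 488 CPM at 144h, against 242 to 334 CPM at 120h. The part of endoderm in the changes of Cdx1 and Cdx2 was not tested. None of the 5 pluripotency genes tested passed (edgeR; their median fold change was 0.52).

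InvClone1 was followed over 4 stages in 1 ISML_third library each, and these values carry no replicate check. Cdx1 had 202 CPM at 96h, 12.9 at 120h, 2.04 at 144h and 0.428 at 168h, the last from 12 counts (exact 95% Poisson interval 0.221 to 0.748 CPM, counting error only). Its level at 168h was 472-fold lower than at 96h. Sp5 had 41.4, 4.71, 1.33 and 1.07 CPM at these stages, the largest step in this course lying before 120h. T had 162 CPM at 96h, 40.3 at 120h, 10.1 at 144h and 10.9 at 168h. For Nkx1-2 the larger steps came later, with 239 CPM at 96h, 193 at 120h, 40.1 at 144h and 7.67 at 168h. Cdx2 likewise had 121, 94.9, 36.6 and 16.1 CPM. Cdx4 was the only gene of the 8 with its highest value at 120h, at 15.3, 51.8, 12 and 2.39 CPM. Evx1 had 30.5, 8.54, 0.754 and 2.43 CPM, and its 144h value rested on 17 counts. Sp8 had 43.6, 38.1, 54.4 and 92.9 CPM, highest at the last stage. Among the 3 Cdx genes, Cdx1 was lowest relative to 96h at each later stage of this course. The other InvClone1 libraries had other levels, so the timing of single steps is not settled by it. Sp5 had 6.61, 13.9 and 28.4 CPM in the other 3 libraries of 120h and 15.4 CPM in the other of 144h, and Cdx2 had 124 to 166 CPM at 120h and 106 CPM at 144h there.

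For InvClone1 at 120h against 96h all libraries were fitted with group and library name, and the 96h arm is 1 library whose spread is taken from the other groups. The TruSeq name occurs in no other group, so its 2 libraries hardly bear on the estimates: that of T is -2.06 with and without them, near the 4.02-fold lower level of the ISML_third library at 120h than at 96h. T, Cdx1, Sp5 and Evx1 passed as lower at 120h, 4 of the 8 genes, where 6.47% of the 17769 genes tested were called and 3.84% were lower. Under 11 alternatives Cdx1 passed in 11, T in 9, Sp5 in 8 and Evx1 in 7, each with its sign kept. At 120h T had 40.3, 49.1, 76.9 and 82.7 CPM in the 4 libraries, against 162 CPM at 96h. Cdx1 had 12.9 to 37.7 CPM, against 202 CPM, and its log2 fold change was -4.31 ± 0.61 (edgeR, adjusted p = 0.00221). Fold changes were -2.06 ± 0.46 for T (edgeR, adjusted p = 0.022), -3.35 ± 0.72 for Sp5 (0.0191) and -2.25 ± 0.57 for Evx1 (0.0355). The other 4 genes did not pass, and their fold changes were -0.61 ± 0.63 for Nkx1-2, -0.60 ± 0.34 for Cdx2, -0.21 ± 0.41 for Sp8 and 1.63 ± 1.25 for Cdx4. Without the term for library name only Cdx1 passed (-2.94 ± 0.63, edgeR, adjusted p = 0.0152), where 716 of the 17769 genes were called. Without replicate 1 at 120h, the library that shares its name with the 96h one, the fold changes of Cdx1 and Evx1 were -5.61 ± 0.89 and -4.09 ± 0.79. Those estimates lean on the term for library name, since no 120h library left shares its name with the 96h one. Evx1 had 8.54 CPM in replicate 1 and 17.1, 18 and 17.7 CPM in replicates 2, 3 and 4, against 30.5 CPM at 96h. With no term for library name its fold change was -0.99. Of the tailbud signalling list 5 of 12 genes were lower and none higher at 120h, including Wnt3a (-2.81) and Wnt8a (-4.61), and of the presomitic list 8 of 9 were lower.

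For InvClone1 at 168h against 144h, 1 library against 2, none of the 8 genes passed in edgeR, which called 0.839% of all genes. The median fold change of all genes was 0.105, which bears on values near 0. Nkx1-2 (-2.78 ± 0.78, adjusted p = 0.142), Cdx1 (-2.82 ± 0.93, 0.193) and Cdx2 (-1.51 ± 0.39, 0.107) had an unadjusted p under 0.05 in edgeR, and DESeq2 called these 3. DESeq2 called 393 genes in all. Without replicate 1 at 144h the fold change of Cdx2 was -2.33 ± 0.45. The 144h library then left was replicate 2, from ISML_second, with the mitochondrial share of 0.0864%. It had 106 CPM of Cdx2, against 36.6 CPM in replicate 1, which shares its library name with the 168h library. The fold changes of the other 5 genes were -2.47 ± 1.43 for Cdx4, -0.64 ± 0.89 for Sp5, 0.06 ± 0.49 for T, 0.76 ± 0.70 for Evx1 and 0.75 ± 0.40 for Sp8. Of 7 neuronal genes tested 4 were higher at 168h and none lower.

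At 120h the lines were compared pairwise, in 5 comparisons from the fit of all libraries. None of the 8 genes passed in any of them, none had an unadjusted p under 0.05 (edgeR), and DESeq2 called none. The share of all genes called was 0.00563% for Ins against Del (1 gene), 0.0169% for InvClone1 against Ins, 0.152% for InsDel5to10 against InvClone2, 0.141% for InsDel7to10 against InvClone2 and 0.253% for InsDel7to10 against InsDel5to10. For Ins against Del, a fit of these 6 libraries alone called 2 genes with the replicate number as a block and 0 without it. With so few calls among all genes, 0 of 8 is near the background. Several of these comparisons share libraries, so they are not independent of each other. No gene of the 7 marker lists passed in these comparisons (edgeR).

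T had 74.2, 38.7 and 76.8 CPM in Ins and 73.2, 36.5 and 64.4 CPM in Del. In both lines replicate 2 was the low one, and the lines overlapped. Nkx1-2 had 171, 223 and 73.9 CPM in Ins and 190, 145 and 116 CPM in Del. The fold changes of Ins against Del lay between -0.06 ± 0.41 for Nkx1-2 and 0.48 ± 0.36 for Evx1 (edgeR log2). Evx1 had 23.3, 18.1 and 13.9 CPM in Ins, against 20.4, 7.43 and 11.2 CPM in Del.

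For InvClone1 against Ins the fold changes lay between -0.13 ± 0.38 (Sp8) and 0.76 ± 0.57 (Evx1). Sp8 had 38.1, 44.3, 31.2 and 39.5 CPM in InvClone1, against 53.7, 72.3 and 37.8 CPM in Ins. Both values depended on single libraries. Evx1 was 0.26 without InvClone1 replicate 1 and 2.51 without replicate 4, and -0.26 without the term for library name. Sp8 was -0.54 without Ins replicate 3, -0.03 without Ins replicate 2 and -0.07 without InvClone1 replicate 4. For InsDel5to10 against InvClone2 the extremes were -0.41 ± 0.45 (Evx1) and Sp8, whose means were 44.0 CPM in both. Cdx4 had 66.8 and 69.4 CPM in InsDel5to10, against 126 and 21.9 CPM in InvClone2, so that both InsDel5to10 values lay between those of InvClone2.

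InsDel7to10 had the lowest mean T level of the lines at 120h, with 46.1 and 36.6 CPM, against 63.8 and 75.4 CPM in InvClone2 and 54.9 and 73.0 CPM in InsDel5to10. InsDel7to10 did not overlap either pair, and the share of all genes of which this holds was not counted. It did overlap Ins, Del and InvClone1, whose lowest 120h libraries had 38.7, 36.5 and 40.3 CPM of T. The fold changes of T were -0.75 ± 0.36 against InvClone2 (edgeR, adjusted p = 0.577) and -0.63 ± 0.36 against InsDel5to10 (adjusted p = 0.572). Notochord markers, a tissue that T also marks, had median fold changes of -2.33 and -2.36 in these 2 comparisons, endoderm markers -2.32 and -2.44 and pluripotency markers -4.24 and -3.75, with no gene of these lists past the threshold. Summed notochord markers were 6.04 and 1.33 CPM in InsDel7to10, against 4.44 and 20.3 CPM in InvClone2 and 5.75 and 13.8 CPM in InsDel5to10. Their part in the T levels was not tested. Without the filter on low counts T passed in both comparisons (edgeR, adjusted p = 0.00762 and 0.0343). That setting called 554 and 957 of 37141 genes, against 25 and 45 of 17769 with the filter. T passed under 1 of 14 alternatives in each comparison. Against InvClone2 and InsDel5to10, Sp5 had the highest fold change, 0.65 ± 0.55 and 0.78 ± 0.55. It rested on replicate 1 of InsDel7to10, which had 30.1 CPM, against 7.15 CPM in replicate 2, and without it the values were -0.72 and -0.60.

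**Figure D3:**
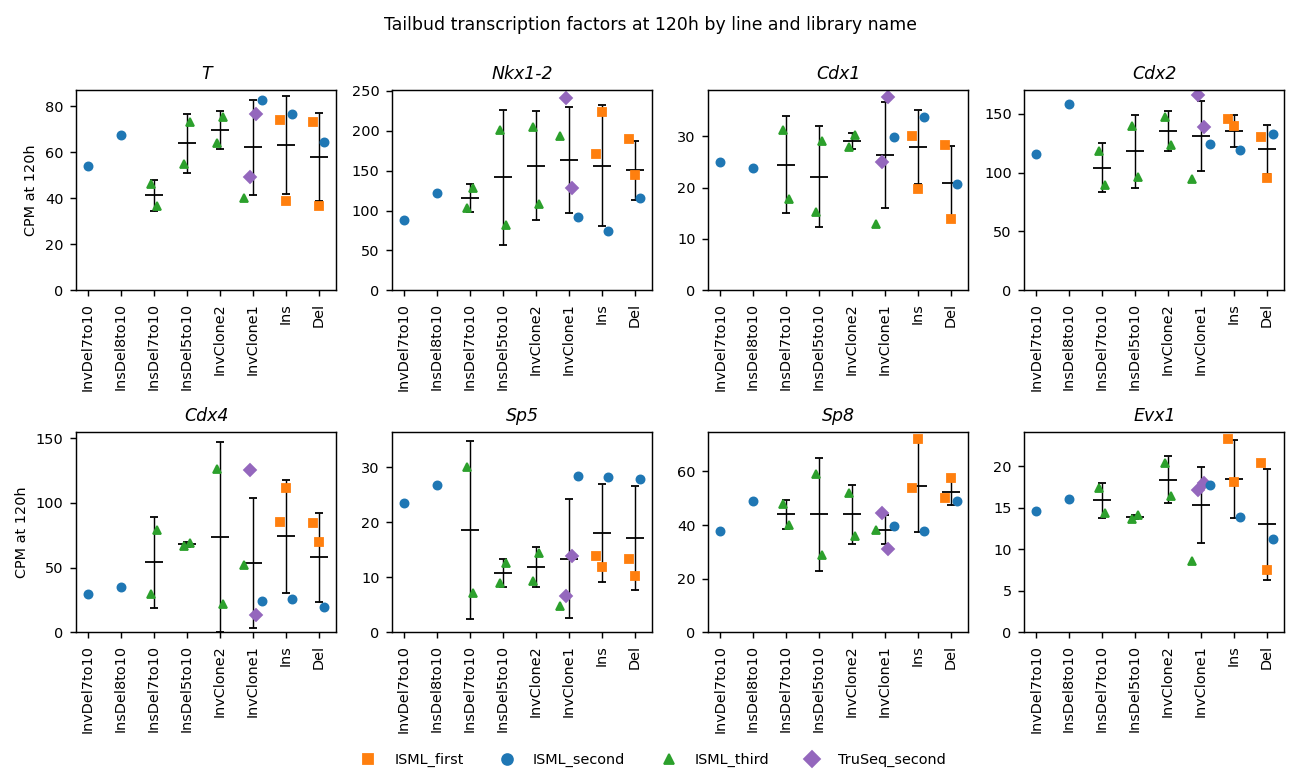
CPM of the 8 genes at 120h in each library (points, shapes by library name) by line, with the mean and SD of lines with 2 or more libraries. Ins and Del overlap for all 8 genes, and Cdx4 in InvClone1 runs from 13.5 to 125 CPM. T in InsDel7to10 lies below InvClone2 and InsDel5to10 but overlaps Ins, Del and InvClone1.

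By library name, some of the 8 genes had different ranges at 120h. Cdx4 lay between 19.3 and 34.9 CPM in the 5 ISML_second libraries, which came from 5 lines, against 13.5 to 126 CPM (median 70.1) in the other 13. Sp5 lay between 23.5 and 28.4 CPM in the ISML_second libraries, against 4.71 to 30.1 CPM (median 11.9) in the other 13. Nkx1-2 lay between 73.9 and 122 CPM, against 81.6 to 242 CPM. In a comparison chosen after these values were seen, ISML_second against ISML_first, none of the 8 genes passed (edgeR) where 2.3% of all genes were called. Cdx4 (-1.96 ± 0.85) and Sp5 (1.19 ± 0.45) had an unadjusted p under 0.05 (edgeR, adjusted p = 0.243 and 0.183). Summed endoderm markers were 242 to 334 CPM in the ISML_second libraries, against 15.4 to 253 CPM in the others, and notochord markers 26.7 to 35.7 CPM, against 1.33 to 20.3 CPM. Their part in the levels of Cdx4, Sp5 and Nkx1-2 was not tested.

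Across the 18 libraries at 120h the 8 genes did not vary as 1 group. All 28 pairs were compared on log2 CPM, and 7 had a Pearson r with an adjusted p under 0.05 (permutation test, two-sided, Benjamini-Hochberg over the pairs), 5 of them positive. The permutations treat the libraries as exchangeable although they share lines, library names and, for Ins and Del, paired replicate numbers, so the p-values are likely too small and the pairs are given as a description. T and Cdx1 had the highest r, 0.76 (adjusted permutation p = 0.0098; Spearman rho = 0.75, adjusted permutation p = 0.012). It was 0.67 without the 2 libraries farthest from the median of T and 0.64 within the 7 ISML_third libraries. Cdx1 and Evx1 had r = 0.73 (adjusted permutation p = 0.0098), but rho was 0.53 (adjusted permutation p = 0.0732) and r was 0.44 without the 2 farthest libraries. Cdx2 and Evx1 had r = 0.63 (adjusted permutation p = 0.023) and rho = 0.53 (adjusted permutation p = 0.0732). Nkx1-2 went with Cdx4 (r = 0.70, rho = 0.68, adjusted permutation p = 0.0121 and 0.0246) and with Sp8 (r = 0.63, rho = 0.64, adjusted permutation p = 0.023 and 0.0297).

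Sp5 went the other way from Nkx1-2 (r = -0.70, rho = -0.73, adjusted permutation p = 0.0121 and 0.012) and from Cdx4 (r = -0.66, rho = -0.65, adjusted permutation p = 0.021 and 0.0297). Sp5, Nkx1-2 and Cdx4 are also the genes whose ranges by library name are given above, and none of them passed that comparison. Among the 13 libraries other than ISML_second, r was -0.53 for Sp5 and Nkx1-2 and -0.45 for Sp5 and Cdx4, and neither passed. There the pairs T and Cdx1 (0.77), Cdx1 and Evx1 (0.79) and Cdx2 and Evx1 (0.71) passed by r, and no pair passed by both r and rho.

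**Figure D4:**
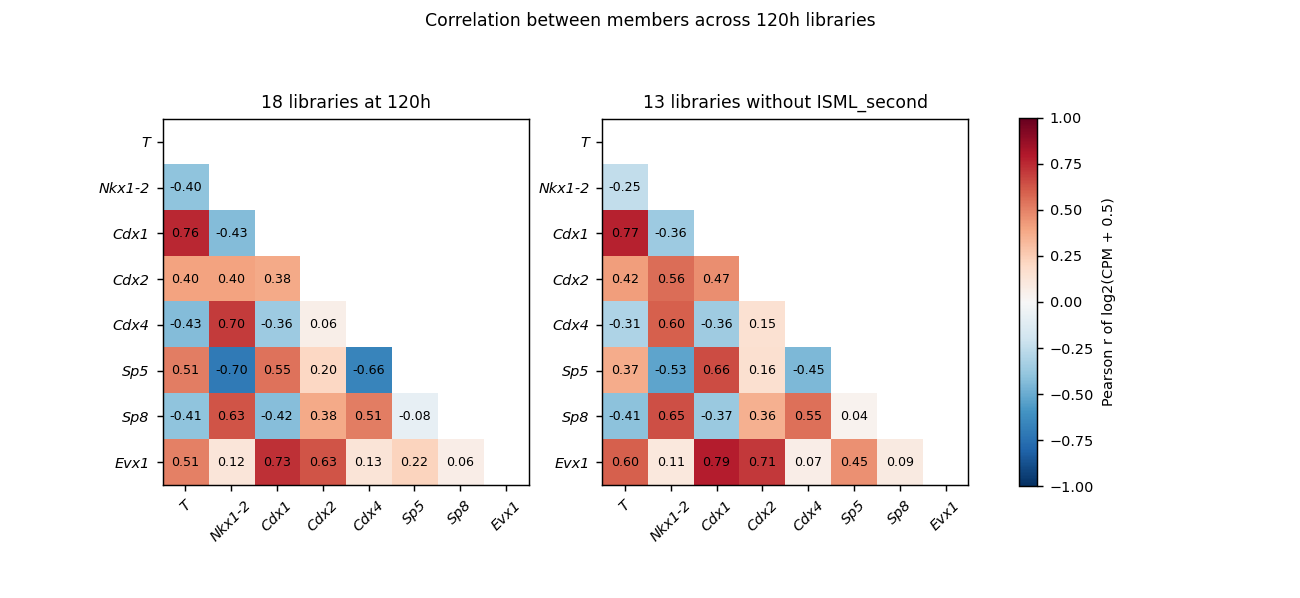
Pearson r of log2 CPM for each pair of the 8 genes over the 18 libraries at 120h and over the 13 of them that are not ISML_second. T and Cdx1 reach 0.76 and 0.77, and the negative values of Sp5 with Nkx1-2 and Cdx4 are smaller in size among the 13 libraries.

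As a description, the genes most like each of the 8 over these 18 libraries were sought among 12068 genes with a mean of at least 1 CPM. They were Smg5 (r = 0.85), P2rx4 (0.85) and Dzip1l (0.81) for T, and Memo1 (0.92), Tom1l1 (0.92) and Fam131b (0.91) for Nkx1-2. For Cdx1 they were Itpkc (0.89), Axin2 (0.87) and Otud3 (0.86), for Cdx2 Mfng (0.86), Grtp1 (0.84) and Notum (0.81), and for Cdx4 Steap2 (0.90), Wnt5a (0.89) and Vrk1 (0.89). For Sp5 they were Snai1 (0.95), Ppp1r9b (0.95) and Zfp771 (0.94), for Sp8 Wnt4 (0.86), Sox2 (0.86) and Cfap300 (0.86), and for Evx1 Wnt3a (0.85), Axin2 (0.84) and Notum (0.82). The libraries share library names and lines, so these values carry no p.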

How the data were processed

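The labels gave each sample's genotype, stage and library name. Raw counts per gene, as deposited, were the basis of the tests, and FPKM values from the authors' second deposited table (per transcript length and depth) served only for levels between genes. The submitters' processing notes list STAR 2.7.10a, cutadapt 1.18 and Cufflinks 2.2.1, and the build mm10. The strand setting and the annotation behind the counts were not given in the sources used here. Per the labels' protocols, 2 libraries were made with the TruSeq Stranded mRNA kit and the others with ISML. Across both tables, 8 columns, 4 in each, fitted no sample label and were left out.

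CPM were counts over the TMM-adjusted library size, and 3 counts, the limit that a count of 0 allows, came to 0.0795 to 0.16 CPM. Tests were run in R 4.3.3 with edgeR 4.0.16, by its robust quasi-likelihood F-test after TMM normalization and a filter on low counts (minimum count 10), with Benjamini-Hochberg adjustment over all genes tested and a threshold of 0.05. Genotypes at 120h and stages of InvClone1 came from 1 fit of all 26 libraries with terms for group and library name (17769 genes, 8 residual degrees of freedom), which takes the spread of a lone library from the replicated groups. The 5-line stage comparison used 10 libraries with terms for line and stage (15011 genes, 4 residual degrees of freedom). The SE of a log2 fold change was its size over the square root of F. Correlations used log2(CPM + 0.5) and 100000 permutations. Exact Poisson intervals (95%) cover counting error only. The scripts were tested on simulated counts.

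The rule named the 8 genes in every comparison (between lines only the extreme fold changes are printed), up to 4 genes of a marker list by smallest adjusted p, and the 3 most alike genes by r, predicted gene models left out. The genes and the 7 lists were chosen with earlier results of these data known. Alternatives were DESeq2 1.42.0, its size factors, a minimum count of 50 or no filter, a fit lacking the library or line term, the compared libraries alone, the replicate number as a block, and each library or line left out. The replicate numbers, from the labels, pair Ins and Del, whose same-numbered libraries deviated together from their group means (r = 0.599, 0.361 and 0.733 across genes). Start coordinates were written 1-based, and promoter windows came from a RefSeq table (GRCm38.p6).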

Additional observations from a re-analysis of the deposited data

Results flagged for a closer look

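Evx1 had 8.54 CPM in replicate 1 of InvClone1 at 120h, against 17.1, 18 and 17.7 CPM in replicates 2, 3 and 4. The gap to the nearest of the others made up 0.902 of the range of the group, above the 95% limit of Dixon's test for 4 values. Chance flags about 1 in 20 groups, and 8 genes were looked at in this group. Replicate 1 is the only ISML_third library of the 4.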

How the results depend on the processing

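Of 808 fold changes of the 8 genes recomputed under alternatives, 690 kept their direction and their side of the threshold, 30 lost the call, 11 gained one and 77 changed sign, none of the 77 with a call; the cause was not tested. Sign changes numbered 9 for Ins against Del, 25 for InvClone1 against Ins, 19 for InsDel5to10 against InvClone2, 7 and 12 for InsDel7to10 against InvClone2 and InsDel5to10, 1 at 120h against 96h and 4 at 168h against 144h. At 144h against 120h no sign changed, and 3 genes passed with no filter and 4 to 8 without 1 line. For InvClone1 at 120h against 96h 1 gene passed with no library term and 2 to 4 without 1 library of 120h. At 168h against 144h 4 passed with no filter and 3 with DESeq2, where 1133 and 393 of all genes were called. T was the 1 gene of the 8 that passed with no filter in each comparison of InsDel7to10, where 554 and 957 of all genes were called. Among the fold changes printed as extremes or named, the sign changed for Nkx1-2 in Ins against Del (0.055 with no library term and 0.051 in the compared libraries alone, 0.24 within ISML_first, leaving out single libraries -0.25 to 0.24), Evx1 in InvClone1 against Ins (-0.26 with no library term and in the compared libraries alone, -0.37 with the replicate block), Sp8 in InsDel5to10 against InvClone2 (DESeq2 size factors 0.0165, no filter 0.0085, minimum count 50 0.0029, DESeq2 0.0167, no library term 6.8e-05, compared libraries alone 0.023, ISML_third alone 0.0023, leaving out single libraries -0.60 to 0.43), Sp5 in InsDel7to10 against InvClone2 and InsDel5to10 (-0.72 to 1.34 and -0.60 to 1.47 leaving out single libraries), Cdx2 at 120h against 96h (0.12 with no library term) T at 168h against 144h (over all alternatives -0.63 to 0.11) and Evx1 at 168h against 144h (-0.75 with no library term, -0.57 to 1.67 leaving out single libraries). Pairs of genes past the threshold of correlation numbered 7 in all 120h libraries and 3 without ISML_second.

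With the replicate block, in the compared libraries alone, 0 of the 8 genes passed in each of the 5 genotype comparisons, and 2, 0, 932, 0 and 3 of all genes. Deviations of same-numbered libraries correlated at 0.192, 0.475 and 0.0823 for InvClone1 against Ins, and at 0.405, -0.266 and -0.173 in the comparisons of 2 against 2. With the numbers crossed, chosen after seeing the data, InsDel7to10 gave 0 calls against InvClone2 and 4 against InsDel5to10. Counts of all genes called ranged over the alternatives from 0 to 89 (Ins against Del, 1 as reported), 0 to 303 (InvClone1 against Ins, 3), 3 to 932 (InsDel5to10 against InvClone2, 27), 0 to 554 (InsDel7to10 against InvClone2, 25), 3 to 957 (InsDel7to10 against InsDel5to10, 45), 325 to 2224 (120h against 96h, 1150), 2 to 1133 (168h against 144h, 149) and 1365 to 4831 (144h against 120h, 2280). Limits are 1 library per line and stage in the stage comparison, 8 groups of 1 library, genotypes partly tied to library names, and for Evx1 and Cdx1 late stages with counts as low as 17 and 12.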

Other observations

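At 144h the 5 lines, with 1 ISML_second library each, came in a like order for T and Evx1, and in part for other genes. This order was noticed after the values were seen and was not tested. T had 37.6 CPM in Ins, 23.9 in InvClone1, 16.1 in InsDel8to10, 14.0 in InvDel7to10 and 9.22 in Del. Evx1 had 9.09, 7.50, 4.42, 3.41 and 1.7 CPM in the same order of lines, and Nkx1-2 had 73.2, 50.2, 31.1, 38.5 and 23.8 CPM. Cdx1 had 14.5, 14.7, 2.78, 3.73 and 2.13 CPM. Hoxb13, the most posterior HoxB gene, had 0.381, 0.885, 1.05, 4.79 and 16.0 CPM in these libraries. At 120h the ISML_second libraries of the same lines had 0.282, 0.425, 0.622, 5.08 and 32.5 CPM of Hoxb13, the same order. There T had 76.8, 82.7, 67.6, 54.1 and 64.4 CPM and Evx1 13.9, 17.7, 16.0, 14.6 and 11.2 CPM. Any part of Hoxb13 in the levels of these genes was not tested. A second InvClone1 library at 144h, from ISML_third, had 10.1 CPM of T and 0.754 CPM of Evx1, below all but the Del library for T and below all 5 for Evx1. It had 2.04 CPM of Cdx1, also below all 5, and 40.1 CPM of Nkx1-2, within their range. The order was not shared by Sp8, with 53.5, 59.7, 57.7, 63.2 and 59.6 CPM, or by Cdx4, with 23.3, 8.38, 10.2, 21.5 and 9.95 CPM. Cdx2 had 94.7, 106, 56.2, 60.7 and 47.2 CPM, and Sp5 had 15.1, 15.4, 3.83, 6.81 and 4.43 CPM.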
